A study of Mus musculus with 9 samples.

Results

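The 10 genes described here encode transcription factors of striatal projection neurons, and they were chosen by symbol as Foxp1, Foxp2, Bcl11b, Ebf1, Isl1, Meis1, Meis2, Six3, Zfp503 and Zfp521. They were followed through 39 probe sets of the 45037 on the array, and all 10 were among the 14208 genes that passed a filter on dim signals. RNA came from tissue punches of 3 regions of the mouse forebrain, with 3 samples per region given in the labels as biological replicates. BNST is the bed nucleus of the stria terminalis, part of the extended amygdala. NAc, the nucleus accumbens, is the ventral part of the striatum, and dStr is its dorsal part. No strain, age, sex or treatment is given in the labels for any region. All mice were anaesthetised with isoflurane and decapitated before slicing. The RNA was amplified in 2 cycles and hybridised to Affymetrix Mouse430_2 arrays, 1 for each sample. Nothing in the labels says whether the replicates came from separate animals, so p-values measure only the spread between these samples. A punch holds many cell types, and in such bulk samples fewer cells of a type and less RNA per cell cannot be told apart.

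Medium spiny projection neurons are the main neurons of the striatum, and they fall into a class with the dopamine receptor D1, the direct pathway, and a class with the receptor D2, the indirect pathway. They arise in the lateral ganglionic eminence of the embryo, where homeodomain, zinc finger and forkhead factors set their fate, and several of these factors stay on in the adult neuron. In mice, Bcl11b (also called Ctip2) is needed for medium spiny neurons to mature. Ebf1 and Isl1 act in the direct pathway class, and Six3 acts in the making of the indirect pathway class.

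Of the 10 factors, 5 were lower in BNST than in both striatal regions. These were the forkhead genes Foxp1 and Foxp2, the zinc finger genes Bcl11b and Zfp503, and the homeodomain gene Meis2. Zfp521 was the only member higher in BNST, and it was higher there than in NAc and in dStr. Foxp1 was also lower in NAc than in dStr, and it was the only member called between these regions. Ebf1, Isl1, Meis1 and Six3 passed in none of the 3 comparisons of regions. Between BNST and NAc the calls covered 6 of the 10 members and 2.24% of all genes, between BNST and dStr 6 of 10 and 14.3%, and between NAc and dStr 1 of 10 and 2.05%. Calls rested on limma's moderated test of log2(intensity + 16) over all 9 arrays, with p-values adjusted over all 14208 genes and a threshold of 0.05.

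**Figure D1:**
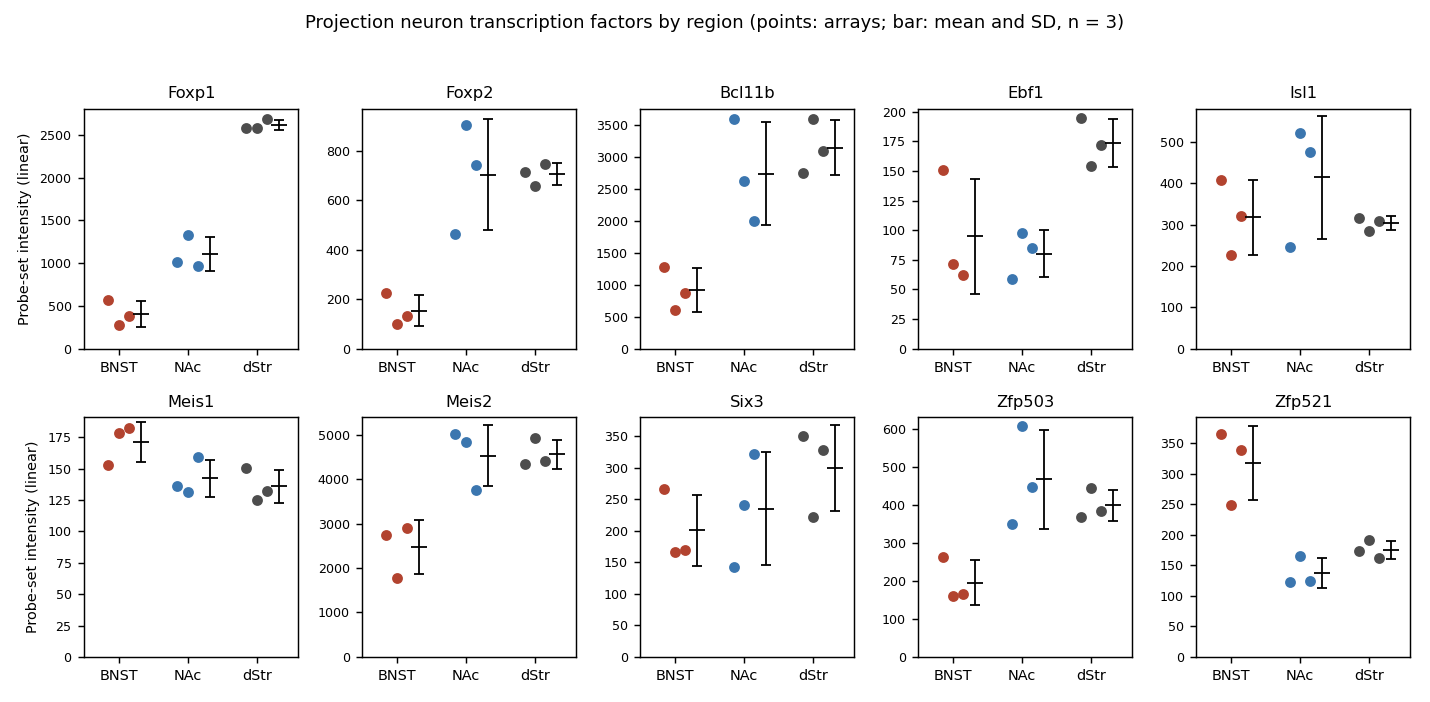
Probe-set intensity (linear scale, from 0) of the 10 members in BNST, NAc and dStr. Points are arrays, and bars are the mean and SD of 3 arrays. The BNST arrays of Foxp1, Foxp2, Bcl11b, Meis2 and Zfp503 lie below all NAc and dStr arrays, and those of Zfp521 lie above them.

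Array medians ran from 93.9 to 102, and the lowest signals stood at a common floor of 15. BNST 1 correlated more closely with NAc 3 (r = 0.965 across genes) than with BNST 2 (0.934) or BNST 3 (0.948), and NAc 1 correlated with NAc 3 at 0.909. Markers of striatal projection neurons were checked as a list of 17 measured genes. Their summed intensity was 5757 to 13998 in BNST, 21741 to 29230 in NAc and 40585 to 44913 in dStr, with BNST 1 the highest and BNST 2 the lowest of the BNST arrays. Astrocyte markers summed to 16182 to 17842 in BNST, 12676 to 14229 in NAc and 11289 to 12003 in dStr (10 genes). Ependymal and choroid plexus markers summed to 1773 to 3500 in BNST, 690.5 to 783 in NAc and 635 to 771 in dStr (8 genes). Microglial markers ran the other way, at 3012 to 3850 in BNST, 3802 to 4659 in NAc and 5214 to 5382 in dStr (9 genes), as did endothelial markers, at 2194 to 2344 in BNST, 2397 to 2526 in NAc and 2996 to 3166 in dStr (8 genes). Of the ependymal and choroid plexus markers, Ttr, Folr1 and Kcnj13 were not called. Their log2 differences were 0.4, 0.1 and -0.25 for BNST against NAc, and 0.39, 0.28 and -0.07 against dStr. Genes listed as markers of thalamic, septal and hypothalamic excitatory neurons summed to 3168 to 4250 in BNST, 2173 to 2820 in NAc and 2310 to 3094 in dStr (6 genes). Of these, Calb2, Slc17a6 and Prkcd were higher in BNST than in NAc (7.27-, 3.54- and 2.29-fold) and than in dStr (15.6-, 4.32- and 2.26-fold), with limma calls that held without any 1 array. Tcf7l2, Rora and Lef1 were not called (log2 differences of -0.22, 0.2 and 0.07 against NAc, and -0.39, -0.23 and 0.25 against dStr). The part of these cell types in the results was not tested. Nor was it tested which cells of the BNST punches expressed Calb2, Slc17a6 and Prkcd.

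Each forkhead gene was lowest in BNST, and their orders parted in the striatum. Foxp1, a transcriptional repressor found in medium spiny neurons of both classes, read 564, 271 and 376 in BNST, 1009, 1333 and 969 in NAc, and 2578, 2583 and 2681 in dStr. No array of 1 region overlapped with those of another. Foxp1 was 6.54-fold lower in BNST than in dStr (log2 difference -2.71, SE 0.23, limma adjusted p = 9.13e-05). It was 2.76-fold lower in BNST than in NAc (log2 difference -1.46, SE 0.23, limma adjusted p = 0.0105) and 2.37-fold lower in NAc than in dStr (log2 difference -1.25, SE 0.23, limma adjusted p = 0.0208).

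The smaller of these steps depended on single arrays. For BNST against NAc the adjusted p of Foxp1 in limma was 0.0579 without BNST 3 and 0.0601 without NAc 2. For NAc against dStr it was 0.0754 without NAc 3, and 0.0958, 0.0835 and 0.101 with dStr 1, dStr 2 or dStr 3 left out, while the log2 difference stayed between -1.39 and -1.16. All 8 Foxp1 probe sets were lower in BNST than in dStr and lower in NAc than in dStr, and the 7 that could be tested were called in the first case and 3 of them in the second. Another of them, chosen after its values were seen for its close replicates, read 361, 318 and 299.5 in BNST, 727, 749 and 664 in NAc, and 1213, 1207 and 1453 in dStr.

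Foxp2, the forkhead gene linked to vocal learning and, in humans, to speech, read 223, 101 and 134 in BNST, 464, 905 and 743 in NAc, and 716, 657 and 746 in dStr. The BNST arrays lay below all others, and the NAc and dStr arrays overlapped. Foxp2 was 4.31-fold lower in BNST than in NAc (log2 difference -2.11, SE 0.28, limma adjusted p = 0.00481) and 4.48-fold lower than in dStr (log2 difference -2.16, SE 0.28, limma adjusted p = 0.000736). Between NAc and dStr the log2 difference was -0.05 (SE 0.28, limma adjusted p = 0.963). The calls against BNST held when any 1 array was left out, with adjusted p-values up to 0.0326 against NAc and 0.00581 against dStr. All 6 Foxp2 probe sets had BNST arrays below the NAc arrays and below the dStr arrays, and none separated NAc from dStr.

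The Foxp2 over Foxp1 log2 ratio, which was chosen after the values were seen, set both genes side by side within each array. It was -1.09, -0.55 and -0.37 in NAc and -1.83, -1.95 and -1.82 in dStr, and the arrays did not overlap. The mean difference was 1.19 (exact two-sided permutation p = 0.1, the smallest that 3 against 3 arrays allow; 0.2 after Benjamini-Hochberg adjustment over 4 such ratios). Of the other ratios, Meis2 over Foxp1 differed by 1.23 between NAc and dStr (exact permutation p = 0.1), Foxp2 over Bcl11b by 0.18 (p = 0.7) and Meis2 over Bcl11b by 0.21 (p = 0.3). The ratios over Foxp1 largely restate its own log2 difference of -1.25, since Foxp2 (-0.05) and Meis2 (-0.02) hardly differed between NAc and dStr. In BNST the Foxp2 over Foxp1 ratio was -1.28, -1.29 and -1.39, between the values of the striatal regions.

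Bcl11b encodes a zinc finger repressor that marks medium spiny neurons and deep-layer cortical projection neurons. It read 1281, 606 and 866 in BNST, 3592, 2629 and 1990.4 in NAc, and 2754, 3599 and 3088 in dStr. The BNST arrays lay below all striatal arrays, while those of NAc and dStr overlapped. Bcl11b was 3.52-fold lower in BNST than in dStr (log2 difference -1.82, SE 0.28, limma adjusted p = 0.00182) and 3-fold lower than in NAc (log2 difference -1.58, SE 0.28, limma adjusted p = 0.0166). The call against NAc ended without BNST 2 (adjusted p = 0.056), BNST 3 (0.0813) or NAc 2 (0.0735) in limma. Between NAc and dStr the log2 difference of the gene was -0.23 (SE 0.28, limma adjusted p = 0.786), although 3 of its 4 probe sets had all NAc arrays below all dStr arrays. In 1 of these the arrays read 1796, 1607 and 2057 in NAc against 2726, 2651 and 2762 in dStr. None of the 4 was called between these regions (log2 differences of -0.91 to -0.23). The cortical markers Fezf2 and Neurod2 summed to 531 to 624 in BNST, 506 to 561 in NAc and 520.2 to 717 in dStr, ranges that overlapped.

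The RefSeq promoter table of GRCm38.p6 was read for 250 bases before each start, and 8 of the 10 members had an entry. Shown are the windows of Foxp1 and Bcl11b that held a searched motif, as these were the members with an entry that fell most in BNST against dStr. Capitals mark matches on either strand to the MEIS core TGACAG, the forkhead motif TGTTTAC, the EBF half-site pair CCCNNGGG or the homeodomain core TAATTA.
Foxp1 chr6:99520994-99521243: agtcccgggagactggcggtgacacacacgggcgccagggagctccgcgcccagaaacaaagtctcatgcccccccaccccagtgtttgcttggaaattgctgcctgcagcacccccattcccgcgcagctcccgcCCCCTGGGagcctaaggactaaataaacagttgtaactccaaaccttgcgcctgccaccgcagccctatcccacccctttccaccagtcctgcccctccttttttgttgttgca
Foxp1 chr6:99266516-99266765: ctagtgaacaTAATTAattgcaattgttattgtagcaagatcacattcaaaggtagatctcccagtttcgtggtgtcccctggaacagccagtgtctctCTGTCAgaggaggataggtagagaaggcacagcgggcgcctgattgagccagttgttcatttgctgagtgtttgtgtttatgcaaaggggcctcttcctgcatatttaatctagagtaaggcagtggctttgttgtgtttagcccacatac
Bcl11b chr12:108003415-108003664: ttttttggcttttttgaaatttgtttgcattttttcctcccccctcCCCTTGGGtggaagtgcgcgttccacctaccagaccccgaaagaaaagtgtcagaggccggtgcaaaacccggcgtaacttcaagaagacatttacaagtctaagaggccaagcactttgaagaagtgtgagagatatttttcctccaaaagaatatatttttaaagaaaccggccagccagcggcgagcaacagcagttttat
All 3 windows are on the minus strand and are printed 5′ to 3′ towards the start. The first Foxp1 window and the Bcl11b window each held a CCCNNGGG match, CCCCTGGG at -114 to -107 and CCCTTGGG at -204 to -197 from the start. The second Foxp1 window held the TGACAG core in reverse, as CTGTCA at -151 to -146, and TAATTA at -240 to -235, and no matches overlapped. Among all 32851 windows of this length, 11.8% held CCCNNGGG, 15.9% TGACAG, 4.84% TAATTA and 3.17% the forkhead motif. The forkhead motif had no match in the 11 windows of the members. The remaining Foxp1 window held none of the 4 motifs, and nor did the windows of Ebf1, Isl1, Meis1, Meis2 and Zfp503. Six3, which was not called, held TGACAG at -139 to -134.

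Meis1 and Meis2 encode homeodomain proteins that bind DNA together with PBX proteins, and only Meis2 was called. Meis2 read 2749.8, 1768 and 2902 in BNST, 5008, 4836 and 3745 in NAc, and 4333, 4935 and 4414 in dStr. The BNST arrays lay below all striatal arrays. It was 1.88-fold lower in BNST than in dStr (log2 difference -0.91, SE 0.20, limma adjusted p = 0.0122) and 1.85-fold lower than in NAc (log2 difference -0.89, SE 0.20, limma adjusted p = 0.0493). All 4 Meis2 probe sets had BNST arrays below those of each striatal region, and the other 3, which were called in both comparisons, gave log2 differences of -1.36 or -1.37 against NAc.

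The call of Meis2 against NAc was near the threshold. The limma adjusted p was 0.136 without BNST 2, 0.0875 without BNST 3, 0.099 without NAc 1 and 0.18 without NAc 2. It was 0.0916, 0.0883 and 0.0897 with dStr 1, dStr 2 or dStr 3 left out. The call also ended with no filter on dim signals (0.0841) and with a pseudocount of 1 (0.057). Leaving out BNST 3 raised the size of the difference to -1.02. Against dStr the call held without any 1 array, with adjusted p-values up to 0.0491.

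Meis1 read 153, 179 and 183 in BNST, 136, 132 and 159 in NAc, and 150.4, 125 and 132 in dStr on its brightest probe set, where each BNST array exceeded each dStr array. The log2 difference was 0.30 between BNST and dStr (SE 0.13, limma adjusted p = 0.165) and 0.24 between BNST and NAc (SE 0.13, limma adjusted p = 0.532). Its probe sets disagreed. The dimmest was too dim to be tested and read 33.1, 31.9 and 25.6 in BNST, 21.8, 45.1 and 36 in NAc, and 74.9, 55.4 and 98.2 in dStr, so that its dStr arrays lay above all others.

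The zinc finger genes Zfp503 and Zfp521 differed between BNST and striatum in opposite directions. Zfp503, also called Nolz1, is a repressor of the embryonic striatal field. It read 263, 159 and 165 in BNST, 349, 606 and 446 in NAc, and 369, 445 and 383 in dStr, and the BNST arrays lay below all others. Zfp503 was 2.28-fold lower in BNST than in NAc (log2 difference -1.19, SE 0.23, limma adjusted p = 0.0253) and 2-fold lower than in dStr (log2 difference -1.0, SE 0.23, limma adjusted p = 0.0149). Its second probe set also had all BNST arrays below the others, at 128, 103 and 112 in BNST, 152, 179.7 and 169.6 in NAc, and 158, 145 and 149.9 in dStr, and its log2 differences of -0.49 and -0.36 were not called.

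Both calls of Zfp503 depended on single arrays. Against NAc the limma adjusted p was 0.111 without BNST 2, 0.129 without BNST 3, 0.103 without NAc 2 and 0.0557 with no filter, and 0.0552, 0.0505 and 0.0521 with dStr 1, dStr 2 or dStr 3 left out. Against dStr it was 0.0661 without BNST 2, 0.0719 without BNST 3 and 0.0591 without dStr 2.

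Zfp521 encodes a zinc finger protein known to bind EBF1 and to hold back its activity in blood cells. It read 365, 249.6 and 339.9 in BNST, 123, 166 and 124 in NAc, and 173, 191 and 162 in dStr. All BNST arrays lay above all others. Zfp521 was 2.17-fold higher in BNST than in NAc (log2 difference 1.12, SE 0.17, limma adjusted p = 0.00927) and 1.73-fold higher than in dStr (log2 difference 0.79, SE 0.17, limma adjusted p = 0.0121). Without BNST 3 the limma adjusted p was 0.0579 against NAc and 0.0592 against dStr, and without dStr 3 it was 0.0564 against dStr. A second probe set was too dim to be tested, with 47.6, 45.6 and 47.7 in BNST, 38, 35.9 and 38.4 in NAc, and 52.9, 44.6 and 48 in dStr. It placed BNST above NAc but not above dStr.

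Ebf1, a helix-loop-helix factor, was not called, and its values turned on BNST 1. It read 151, 71.1 and 62.3 in BNST, 58.5, 97.3 and 84.5 in NAc, and 195, 155 and 172 in dStr, so that the dStr arrays lay above all others. The log2 difference was -0.86 between BNST and dStr (SE 0.27, limma adjusted p = 0.0596), -1.0 between NAc and dStr (SE 0.27, limma adjusted p = 0.112) and 0.14 between BNST and NAc (SE 0.27, limma adjusted p = 0.921). Without BNST 1 the adjusted p in limma was 0.00252 for BNST against dStr and 0.0145 for NAc against dStr, and without NAc 1 it was 0.0371 for BNST against dStr. Of the 5 Ebf1 probe sets, a second bright enough to be tested read 106, 52.9 and 46.9 in BNST, 38.2, 53.6 and 66.6 in NAc, and 99.3, 92.1 and 103 in dStr, where BNST 1 exceeded all dStr arrays. The other one tested overlapped in all regions, with 79, 76.4 and 67.4 in BNST, 67.8, 88.1 and 81.6 in NAc, and 75.5, 89.1 and 80 in dStr.

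Isl1, a LIM homeodomain factor of direct pathway neurons and of cholinergic interneurons, read 407, 225 and 320.1 in BNST, 245, 521 and 476 in NAc, and 316, 283 and 309 in dStr. The 3 regions overlapped. Its log2 difference was -0.34 between BNST and NAc (SE 0.28, limma adjusted p = 0.726), 0.03 between BNST and dStr (SE 0.28, limma adjusted p = 0.963) and 0.36 between NAc and dStr (SE 0.28, limma adjusted p = 0.641). The cholinergic markers Chat and Lhx8, the only ones of their list measured, summed to 237 to 327 in BNST, 249 to 498 in NAc and 279 to 304 in dStr. Chat averaged 104 in BNST, 106 in NAc and 104 in dStr, so the sums differed mainly through Lhx8. Its arrays read 94.4 to 113.9, near the array medians of 93.9 to 102, which limits what Chat can show. The part of these cells in the Isl1 values was not tested.

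Six3, a homeodomain gene, read 266, 167 and 169.7 in BNST, 142, 242 and 321 in NAc, and 349.8, 222 and 328 in dStr, and the regions overlapped. The log2 difference was -0.55 between BNST and dStr (SE 0.29, limma adjusted p = 0.239), and the other 2 Six3 probe sets gave -0.11 and 0.06.

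**Figure D2:**
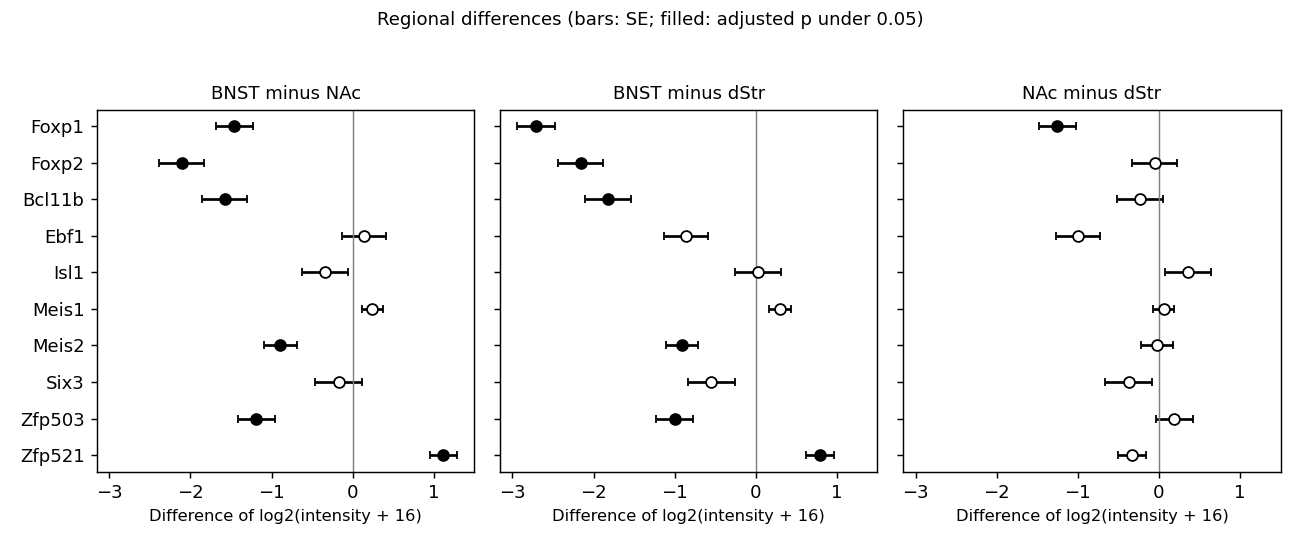
Difference of log2(intensity + 16) between regions for the 10 members, with BNST minus NAc, BNST minus dStr and NAc minus dStr from left to right. Bars are standard errors of the limma fit, and filled points have an adjusted p under 0.05. Foxp1 has the only filled point between NAc and dStr, at -1.25, and Zfp521 the only filled points right of 0, at 1.12 and 0.79.

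Counted together, 5 of the 10 members were lower and 1 was higher in BNST than in NAc, where 1.48% of all genes were lower and 0.760% higher. Against dStr 5 were lower and 1 was higher in BNST, where 9.33% of all genes were lower and 4.94% higher. Between NAc and dStr 1 was lower in NAc and 0 higher, where 1.10% of all genes were lower and 0.950% higher (limma; at an unadjusted p under 0.05, 2 members, Foxp1 and Ebf1, and 1860 of 14208 genes passed in either direction). Over the 3 regions 6 members passed limma's F test, which 10.3% of all genes passed. The median log2 difference of the members was -0.61 for BNST against NAc, -0.88 for BNST against dStr and -0.14 for NAc against dStr, and over all genes it was -0.05, -0.06 and -0.02. Arrays of the regions did not overlap for 1 member higher and 5 lower in BNST than in NAc (5.79% and 8.85% of all genes), 2 higher and 6 lower in BNST than in dStr (14.9% and 21.5%), and 0 higher and 2 lower in NAc than in dStr (9.11% and 10.0%). At the level of probe sets, 33 of the 39 were bright enough to be tested. Of these, 18 were lower and 1 higher in BNST than in NAc, 21 lower and 1 higher in BNST than in dStr, and 3 lower in NAc than in dStr, where 1.27%, 9.83% and 1.05% of all probe sets were lower and 0.726%, 4.70% and 0.772% higher. Probe sets of 1 gene are not independent measures of it, although some disagreed, as for Meis1.

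These counts moved with the arrays that were left out. BNST 1 and NAc 1 were singled out on these same data, so calls gained without them are not independent support. That fit had 2 arrays each in BNST and NAc. Without BNST 1 and NAc 1, 6 members were lower and 1 higher in BNST than in NAc, as were 13.0% and 2.46% of all genes. Against dStr it was 7 lower and 1 higher, with 20.6% and 8.61% of all genes. Between NAc and dStr 2 were lower and 1 higher in NAc, with 2.40% and 2.58% of all genes. Isl1 was then lower in BNST than in NAc (log2 difference -0.85, limma adjusted p = 0.0107), Ebf1 and Six3 were lower in BNST than in dStr (-1.20 and -0.75, adjusted p = 0.000183 and 0.0159), Ebf1 was lower in NAc than in dStr (-0.83, adjusted p = 0.0081) and Isl1 was higher (0.69, adjusted p = 0.0355). With the arrays of BNST and NAc alone, Foxp2 was the 1 member called between them, and without BNST 3 it was the same. The number of members called between BNST and NAc was 6 with all arrays, 6 without BNST 1 and 5 without NAc 1. It was 3 without BNST 2, 1 without BNST 3 and 2 without NAc 2. The number of all genes called fell likewise, to 145, 101 and 112 in these fits, against 318 with all arrays.

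**Figure D3:**
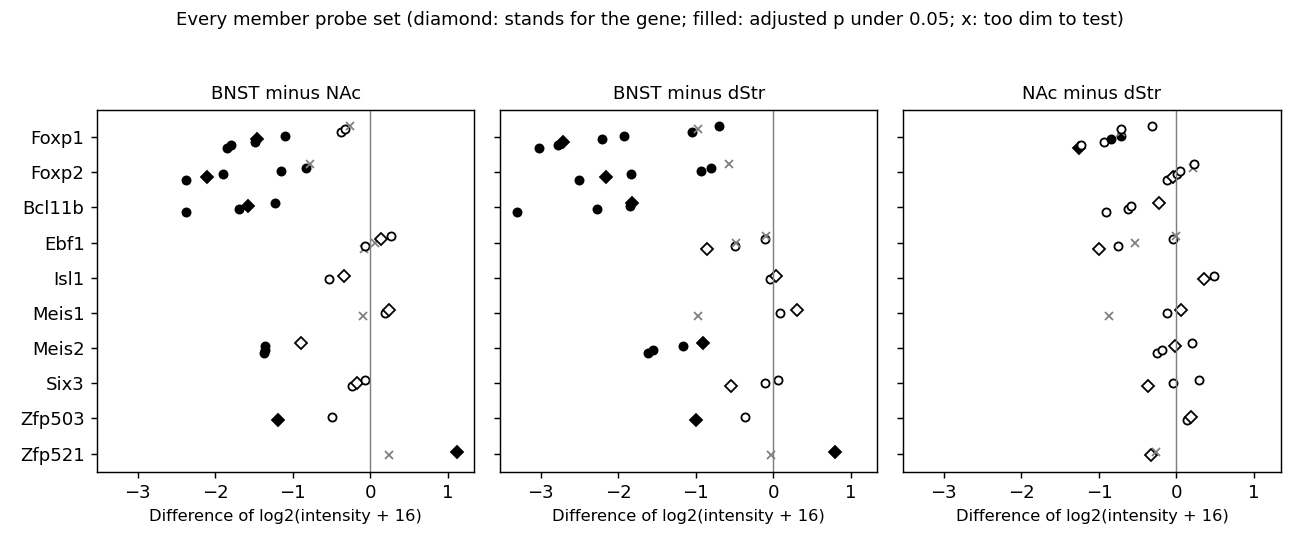
Difference of log2(intensity + 16) between regions for each of the 39 member probe sets. Diamonds mark the probe set that stands for the gene, filled symbols an adjusted p under 0.05 over all probe sets, and crosses the 6 that were too dim to be tested. All Foxp1, Foxp2, Bcl11b, Meis2 and Zfp503 probe sets lie left of 0 in both comparisons with BNST, and the Meis2 diamond (-0.89) is not filled between BNST and NAc at this level.

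Paralogs and cofactors of the members were compared as a list of 21 measured genes. Between BNST and NAc 1 was higher and 2 were lower in BNST, between BNST and dStr 3 were higher and 3 lower, and between NAc and dStr 1 was higher and 1 lower in NAc. Their median log2 differences were 0.02, 0.01 and 0.04. Of all genes, 0.760% were higher and 1.48% lower, 4.94% higher and 9.33% lower, and 0.950% higher and 1.10% lower. Without BNST 1 and NAc 1 the counts were 1 higher and 4 lower, 4 higher and 4 lower, and 3 higher and 1 lower. The shares of all genes were then 2.46% and 13.0%, 8.61% and 20.6%, and 2.58% and 2.40%. Pbx3, which encodes a DNA-binding partner of the MEIS proteins, read 522, 217 and 309 in BNST, 1014, 1407 and 1300.4 in NAc, and 1729, 1607 and 1732 in dStr. It was 3.62-fold lower in BNST than in NAc (limma adjusted p = 0.00612) and 4.96-fold lower than in dStr (limma adjusted p = 0.000334). Bcl11a, the paralog of Bcl11b, averaged 363 ± 53.2 (SD, n = 3 arrays) in BNST, 741 ± 104 in NAc and 490.2 ± 49.5 in dStr. It was 2-fold lower in BNST than in NAc (limma adjusted p = 0.00982, and 0.0586 without BNST 3), and 1 of its 5 probe sets went the other way.

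The LIM-only genes, whose proteins bridge LIM homeodomain factors and other partners, differed among themselves. Lmo2 averaged 303 ± 69.7 in BNST, 432 ± 58 in NAc and 1194 ± 175 in dStr (SD, n = 3 arrays). It was 3.84-fold lower in BNST than in dStr (limma adjusted p = 0.000154) and 2.7-fold lower in NAc than in dStr (limma adjusted p = 0.00368). Lmo3 was 2.41-fold lower in BNST than in dStr (limma adjusted p = 0.00292). Lmo1 went the other way at 207 ± 32.2 in BNST, 203 ± 30.5 in NAc and 79.6 ± 8.4 in dStr, and was 2.32-fold higher in BNST and 2.28-fold higher in NAc than in dStr (limma adjusted p = 0.000736 and 0.00368). Zfp423, the paralog of Zfp521, averaged 181 ± 29.3 in BNST, 81.3 ± 16.2 in NAc and 54.2 ± 6.67 in dStr. Like Zfp521 it was higher in BNST than in NAc (2.03-fold, limma adjusted p = 0.0129, and 0.0725 without BNST 3) and than in dStr (2.8-fold, limma adjusted p = 0.000334).

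**Figure D4:**
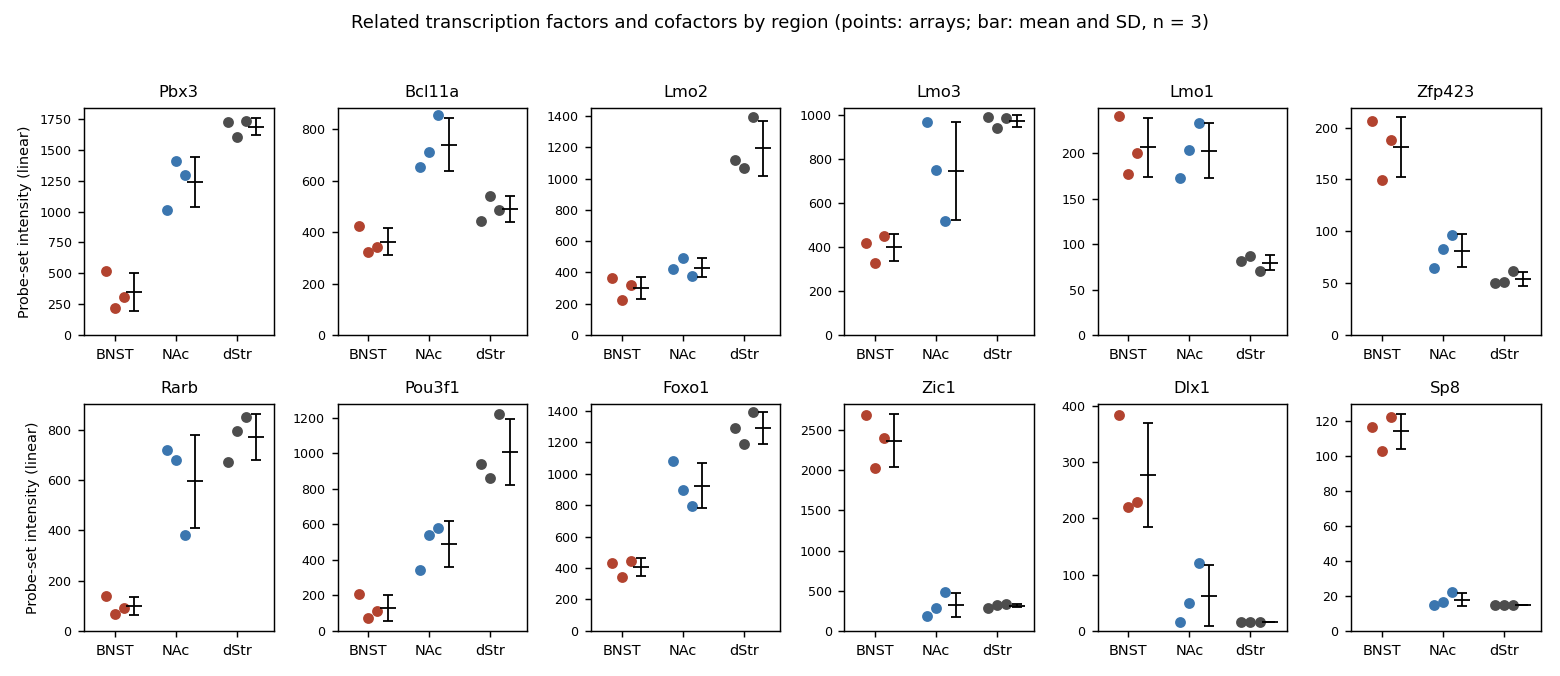
Probe-set intensity (linear scale, from 0) of 12 related factors in BNST, NAc and dStr. Points are arrays, and bars are the mean and SD of 3 arrays. Pbx3, Rarb, Pou3f1 and Foxo1 are lowest in BNST, Zfp423, Zic1, Dlx1 and Sp8 are highest there, Bcl11a is highest in NAc and Lmo2 in dStr.

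Of 28 other measured transcription factors of the ventral forebrain, 3 were higher and 5 lower in BNST than in NAc, 6 higher and 8 lower in BNST than in dStr, and 1 higher and 1 lower in NAc than in dStr. Their median log2 differences were -0.13, -0.20 and -0.01. Of all genes, 0.760% were higher and 1.48% lower, 4.94% higher and 9.33% lower, and 0.950% higher and 1.10% lower. Without BNST 1 and NAc 1 the counts were 3 higher and 8 lower, 6 higher and 9 lower, and 4 higher and 3 lower. The shares of all genes were then 2.46% and 13.0%, 8.61% and 20.6%, and 2.58% and 2.40%. Rarb, a retinoic acid receptor, was 7.11-fold lower in BNST than in dStr (97.9 ± 35.9 against 772 ± 91.9, limma adjusted p = 0.000152), Pou3f1 7.56-fold lower (129 ± 70.7 against 1007 ± 187, limma adjusted p = 0.000298) and Foxo1 3.1-fold lower (406 ± 57 against 1289 ± 100.5, limma adjusted p = 0.000152; SD, n = 3 arrays each). Genes of the Dlx family, which specify forebrain GABA neurons, included Dlx1 at 384, 221 and 228 in BNST, with all dStr arrays at the floor, at least 18.6-fold higher in BNST. Zic1, a zinc finger gene, averaged 2369 ± 329 in BNST, 322 ± 155 in NAc and 313 ± 20.7 in dStr (SD, n = 3 arrays). Sp8, a zinc finger factor of the dorsal lateral ganglionic eminence, was at least 7.61-fold higher in BNST than in dStr, where all arrays were at the floor. Dlx5 and Dlx6, which were not called and were chosen after their values were seen, averaged 191 and 158 in BNST, 183 and 142 in NAc, and 184 and 183 in dStr.

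Genes of the mature projection neurons were counted beside the members. Of the 17 genes of both neuron classes, 9 were lower in BNST than in NAc, 17 lower in BNST than in dStr and 3 lower in NAc than in dStr, and none was higher, with median log2 differences of -1.35, -2.17 and -0.94. Over all genes 1.48%, 9.33% and 1.10% were lower in these comparisons. Without BNST 1 and NAc 1 the numbers lower were 17, 17 and 10, where 13.0%, 20.6% and 2.40% of all genes were lower. Of 6 direct pathway genes, Drd1, Tac1 and Pdyn were lower in BNST than in NAc, and Drd1, Tac1 and Slc35d3 were lower in BNST than in dStr. Pdyn, the prodynorphin gene, was also higher in NAc than in dStr. Of 6 indirect pathway genes 2 were lower in BNST than in NAc and 3 than in dStr, and Drd2 was lower in NAc than in dStr. The direct pathway genes Eya1 and Sfxn1 were not called. Their log2 differences were 0.12 and 0.08 for BNST against NAc, and 0.94 and -0.34 against dStr. Nor were the indirect pathway genes Plxdc1, Adk and Ptprm called. Theirs were 0.17, -0.33 and -0.43 for BNST against NAc, and 0.21, -0.39 and -0.33 against dStr. In BNST the projection neuron list had its highest array in BNST 1 and its lowest in BNST 2, as did the brightest probe sets of Foxp1, Foxp2 and Bcl11b. Meis2 had the same highest and lowest arrays on 3 of its 4 probe sets, and on the brightest BNST 3 was the highest. Other probe sets of Foxp1, Foxp2 and Bcl11b did not all share this order. In BNST 1, 2 and 3, 1 of each read 72.9, 83.9 and 89.1 (Foxp1), 49.2, 59.9 and 53.7 (Foxp2), and 130, 30.3 and 15 (Bcl11b).

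The genes nearest to each called member were found by the root mean square difference of centred log2 values over the 9 arrays. Nearest to Foxp1 were Spock3 (0.17), Lingo3 (0.17) and Rgs9 (0.18), the last a regulator of G protein signalling in medium spiny neurons, at 361 in BNST, 898 in NAc and 2211 in dStr on average. Nearest to Foxp2 were Runx1t1 (0.16), Dclk3 (0.16) and Pbx3 (0.21), and nearest to Bcl11b were Mctp1, Ndrg1 and Cbr3 (0.18 each). Meis2 had Hlf (0.10), Actr3 (0.11) and Kctd1 (0.11), and Zfp503 had Tmtc1 (0.11), St6gal2 (0.13) and Plppr1 (0.14). Nearest to Zfp521, with their highest means in BNST, were Pdlim4 (0.14), Mpdz (0.15) and Cnn3 (0.16), the last at 985 in BNST, 555 in NAc and 632 in dStr.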

How the data were processed

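The deposited values are linear probe-set intensities from Affymetrix Mouse430_2 arrays, with low signals set to a floor of 15. RNA was amplified in 2 cycles, per the labels' protocols. How probe sets were summarised and scaled is not given in the sources used here. Medians of the 9 arrays differed by at most 0.119 on the log2 scale, so the scaling of the authors was kept. The precision is limited by having 3 arrays per region.

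Intensities were taken as log2(intensity + 16), which understates the folds of dim genes. A probe set was kept if 3 or more arrays exceeded the 40th percentile of their array, which left 29293. Where several kept probe sets named a gene, the brightest on average stood for it, and 5897 of 14208 genes had several. Of all probe sets, 34945 had 1 symbol, 932 several and 9160 none, and matching 34741 by Entrez identifier changed 0 symbols. Regions were compared in 1 limma 3.58.1 model (R 4.3.3) of 9 arrays with 6 residual degrees of freedom, two-sided, with Benjamini-Hochberg adjustment over all genes. The fit was tested on simulated data with independent normal noise and planted differences. Those data held no outlying arrays and no floor, so the test does not bear on either. Folds are powers of 2 of the fitted difference. A fold against arrays all at the floor is a mean over the floor.

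The members, lists and alternatives were chosen with earlier results of these data known. All members were named. From each other list the called genes with the largest differences could be named, up to 4 per comparison and direction, and for each member called by the F test the 3 genes nearest in profile. Alternatives were 2 other scalings, 2 other filters, 3 ways to represent a gene, another prior, a replicate block, 2 other pseudocounts, arrays left out, pairs of regions alone and a minimum difference of 1. Replicate numbers were not taken as pairing, since correlations of deviations between same-numbered arrays ran from -0.514 to 0.261.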

Additional observations from a re-analysis of the deposited data

How the results depend on the processing

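The directions of all called members held under each alternative, and the number called between BNST and dStr stayed between 4 and 8 of 10. With the arrays of BNST and NAc alone 1 member was called between them, and 71 genes in all. With those of NAc and dStr alone 2 members and 272 genes were called. With the replicate block, 4 members were called between BNST and NAc and 196 genes in all, 0 members and 183 genes between NAc and dStr, and 953 genes over the 3 regions, against 318, 291 and 1461 without it. With it 6 of the 17 projection neuron genes were lower in BNST than in NAc, against 9. It ended the calls of Meis2 (adjusted p = 0.114) and Zfp503 (0.0702) between BNST and NAc and of Foxp1 (0.067) between NAc and dStr. Leaving out BNST 1 and NAc 1 together gave 2203 genes for BNST against NAc, 4150 for BNST against dStr, 3 members and 707 genes for NAc against dStr, and 3686 genes over the regions, where 9 members passed. Testing each probe set gave 3461 calls between BNST and dStr, against 2027 genes, and 2406 over the regions. A difference of at least 1 left 866 genes for BNST against dStr and 175 for NAc against dStr. Quantile normalisation shifted the median gene by 0.117 between BNST and dStr, where 1266 genes were then higher and 1164 lower in BNST, against 702 and 1325. Without 1 array, members called ran from 1 to 6 (BNST, NAc) and 0 to 2 (NAc, dStr), and genes from 101 to 617 (BNST, NAc), 1112 to 2674 (BNST, dStr), 112 to 419 (NAc, dStr) and 740 to 1962 (3 regions).

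Signs turned only for differences that were not called. Between NAc and dStr, Foxp2 was at 0.01 after quantile normalisation, 0.02 as the mean of probe sets and 0.21 without BNST 1 and NAc 1, Meis2 at 0.01 after centring and 0.20 with unsuffixed probe sets, and Meis1 at -0.03 as a mean. Between BNST and NAc, Ebf1 was at -0.07 with unsuffixed probe sets and -0.37 without those 2 arrays, and between BNST and dStr Isl1 at -0.01 as a mean and -0.16 without them. Without 1 array the ranges that crossed 0 were -0.26 to 0.21 for Foxp2, -0.01 to 0.13 for Meis1, -0.1 to 0.11 for Meis2 and -0.01 to 0.38 for Zfp503 (NAc against dStr), -0.2 to 0.35 for Ebf1 and -0.47 to 0.07 for Six3 (BNST against NAc), and -0.16 to 0.24 for Isl1 (BNST against dStr). The cause was not tested. The number of arrays limits all comparisons, and 2 of the 5 Ebf1 probe sets were too dim to be tested.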
